A study of Cynodon dactylon with 6 samples.

Results

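Among the transcripts of bermudagrass leaves, 110 unigenes were lower after 2 h at 42 °C and remained below control after 12 h of heat. Bermudagrass (Cynodon dactylon) is a warm-season turf and forage grass, and a unigene is a gene-level unit to which reads were assigned. The members were chosen from the deposited read counts, divided by a median-of-ratios size factor per library to give normalized read counts. A member had a mean level of at least 100 in the controls and was at least 3-fold lower after 2 h. Its 12 h level had to exceed 50% of the 2 h level and to lie more than 1.5-fold below the control level, with 1 added to each group mean. The 110 members were 1.09% of the 10068 unigenes at this control level and 0.0984% of all 111743 unigenes.

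The groups were wild-type leaves of control seedlings labelled 0 h, leaves after 2 h of heat and leaves after 12 h of heat, with 2 libraries each and 6 in all. The seedlings were 10 days old. The labels do not say whether replicates came from separate plants or pools, and no unheated leaves of 2 h or 12 h are among the samples, so duration of heat and hour of sampling cannot be told apart. Whole leaves were used, and fewer cells of a type and less RNA per cell cannot be told apart.

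In plants, heat activates heat shock transcription factors, which switch on chaperone genes, while many transcripts of growth and metabolism decline. The level of an mRNA is set by its synthesis and its decay, so a quick fall requires that existing copies are degraded. A transcript that is low early and late in a stress differs in this from one that dips and returns. No gene name or sequence comes with the unigene IDs in these files, so the members are described by level, time course, length and assembly component, and no gene family is named.

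The 110 members were transcripts of middle to high abundance before heat, as the rule required. Its minimum control level of 100 was reached by 9.01% of all unigenes. Their mean normalized read count in the controls ran from 102 to 7925 with a median of 488, and the quartiles were 177 and 1272. No member was among the 100 most abundant unigenes of the controls. The highest ranked 108th, 15 were among the first 500 and 28 among the first 1000. Per length, as FPKM (reads scaled for unigene length as well as library total), the members had a median control level of 42.4 and a range from 3.59 to 887.

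As a group the members held a much smaller share of the reads at 2 h than in the controls. They held 1.37% of the reads in control replicate 1 (95% Wilson interval 1.36% to 1.38%) and 1.30% in control replicate 2 (1.29% to 1.31%). Both libraries of 2 h stood at 0.356% and 0.355%, with intervals from 0.351% to 0.360% and from 0.351% to 0.359%. The 12 h libraries stood at 0.475% and 0.502%, with intervals from 0.471% to 0.480% and from 0.497% to 0.506%; these intervals cover counting error only. The group means were 1.34% ± 0.0487, 0.355% ± 0.000312 and 0.489% ± 0.0189 (SD, n = 2 each). The heated libraries therefore all lay below both controls, a gap that the choice of members fixes. The 5 members with the highest control level took 26.9% and 27.2% of the members' reads in the controls and 25.4% to 29.6% in the heated libraries.

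**Figure D1:**
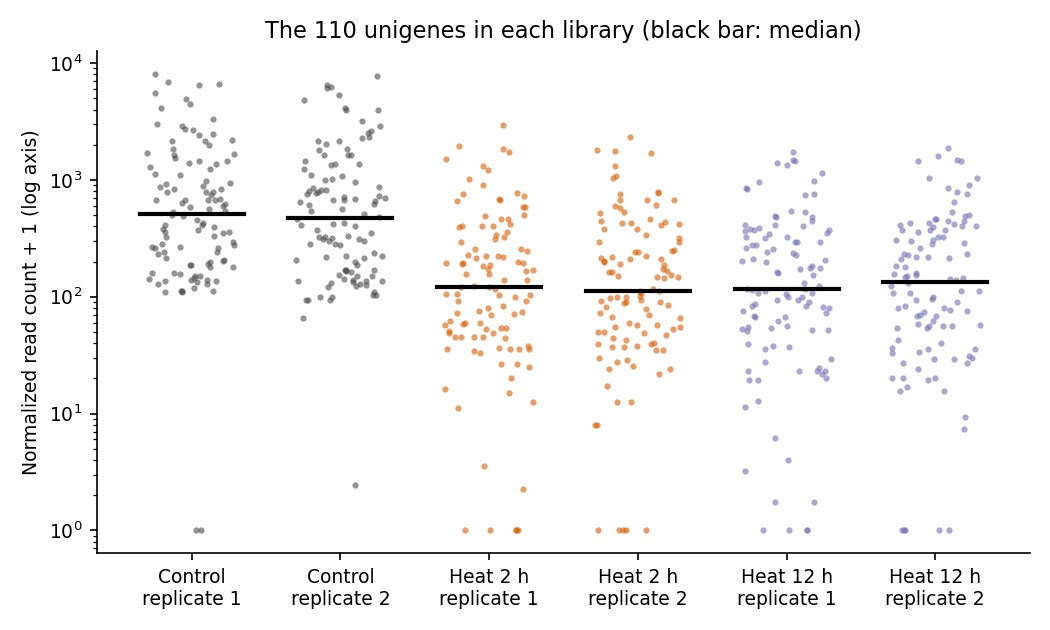
Normalized read count plus 1 (log axis) of the 110 members in each of the 6 libraries, with 1 point per unigene and the median as a black bar. The medians of the counts were 514 and 473 in the controls, 120.3 and 110.2 at 2 h, and 116 and 134 at 12 h; points at the foot of the plot are members without a read.

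The fall by 2 h was mostly moderate. At 2 h 5 members had no read. The mean level of the other 105 was between 2.79% and 33.3% of control, and over all 110 the median was 28.5% and the median fold 3.51. Of the 110, 76 were between 3-fold and 4-fold lower, 22 between 4-fold and 8-fold, and 12 at least 8-fold. Many sat close to the limit that chose them: 53 had a fold under 3.5, and another 92 unigenes that met every other condition were between 2.5-fold and 3-fold lower. The member just inside the limit was 3.004-fold lower (normalized read counts of 159.7 in the controls and 52.5 after 2 h), and the unigene just outside was 2.99-fold lower (982 and 328). The list is therefore a slice through a continuous range of falls.

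After 12 h the members covered a wider range of levels, which the rule allowed. It required a fall of at least 3-fold at 2 h but only of more than 1.5-fold at 12 h. Of the 110, 4 had no read at 12 h and 1 had a single read, and the level of the other 105 was between 2.08% and 66.6% of control. Over all 110 the median was 23.2% and the median fold 4.32. In all, 76 members were still at least 3-fold lower than the controls, 64 at least 4-fold and 15 at least 8-fold. Another 18 were between 2-fold and 3-fold lower, and 16 between 1.5-fold and 2-fold.

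By the fit across all 25828 unigenes tested (edgeR quasi-likelihood test, adjusted p below 0.05), 104 members were called lower at 2 h. The same 104 were called lower at 12 h. Over all unigenes tested 14.4% were called lower at 2 h and 24.4% at 12 h; among those with a control level of 100 or more these were 27.1% and 41.5%. In 107 members every heated library was below every control library at 2 h, and in 107 at 12 h, against 32.6% and 33.9% of all unigenes tested. The rule used both contrasts, so these counts only describe the list. Of the 110, 108 passed the filter on low counts, and the 6 members outside the 104 are described further on.

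Set against 2 h, the main fit sorted the members into 3 courses by 12 h. It called 58.3% of the 108 tested either way, against 59.0% of all unigenes with a control level of 100 or more. The number called is therefore no result about the members. The fit called 28 higher at 12 h than at 2 h, 35 lower and 45 neither, and 2 were not tested; over all unigenes tested 22.9% were called higher and 22.8% lower, and 21.1% and 37.9% of those with a control level of 100 or more. Without heat 2 h replicate 2 the fit called 16 higher and 27 lower; DESeq2 called 16 higher and 26 lower, and limma on log2(FPKM + 1) called 41 higher and 0 lower. By normalized read count, the 28 called higher in the main fit went from a median of 28.2% of control at 2 h to 50.4% at 12 h. The 35 that were lower still went from 29.5% to 18.7%. The 47 others, including both untested members, stood at 23.0% and 23.6%. The median control levels of these courses were 535, 1051 and 277 normalized reads, and 18 of the 35 lower calls came from the 37 most abundant members, which held 9 of the 28 higher calls. In the 36 least abundant, with control levels up to 244, 5 were called lower and 9 higher. By mean level alone the direction hardly differed with abundance. Of the 37 most abundant, 16 were higher at 12 h than at 2 h, of the middle 37 it was 15, and of the 36 least abundant 16. Shares called over all unigenes at these levels were not taken.

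**Figure D2:**
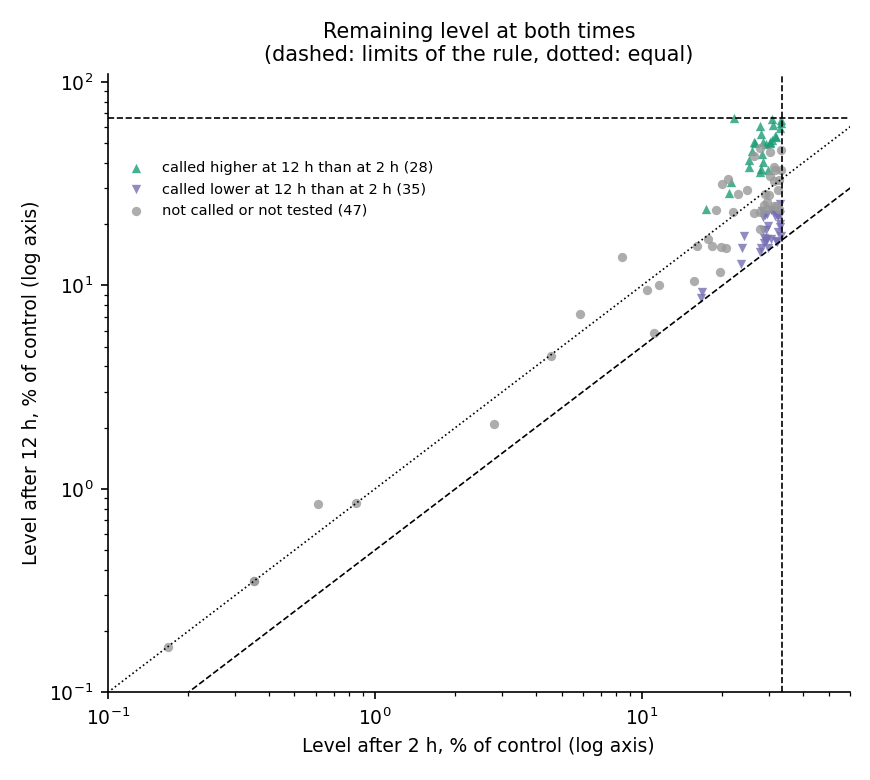
Mean level of each member after 2 h (x) and after 12 h (y) as a percentage of control, on log axes, with dashed lines at the limits of the rule and a dotted line where both times are equal. The 28 members called higher at 12 h lie above the dotted line, the 35 called lower lie below it, and most members crowd near the limit of 33.3% at 2 h. Points under 1% of control are members with at most 1 read in a heated group, placed by the 1 added to each mean.

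The direction of change between 2 h and 12 h depended on how libraries were scaled. With the trimmed-mean scaling used here (TMM, which sets most unigenes level), the members' median log2 fold change of 12 h against 2 h was -0.15, while with library totals alone it was 0.38. With totals alone 47 of the 108 members tested were called higher and 5 lower, which is 43.5% and 4.63%, against 48.2% and 11.7% of all unigenes tested under that scaling. The scaling moved the median of all unigenes tested in the same way, from 0.05 to 0.64, so relative to that median the members stood at -0.20 and -0.26. For 12 h against control the members' median was -2.13 with TMM and -1.51 with totals, and relative to all unigenes tested -2.26 under both. The fall at 2 h hardly moved, with medians of -1.82 and -1.78.

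Per length the same dependence showed in the authors' FPKM values, which are scaled to library totals. The median member stood at 28.3% of its control FPKM after 2 h and at 35.3% after 12 h. FPKM was higher at 12 h than at 2 h in 82 members and lower in 24, where normalized read counts were higher in 47 and lower in 59. At 12 h 109 members remained below their control FPKM, and in 20 the FPKM exceeded the control value divided by 1.5. The members' normalized read counts summed to 120635 ± 3745 in control leaves, to 31492 ± 1614 at 2 h and to 29434 ± 510.3 at 12 h (SD, n = 2 each).

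**Figure D3:**
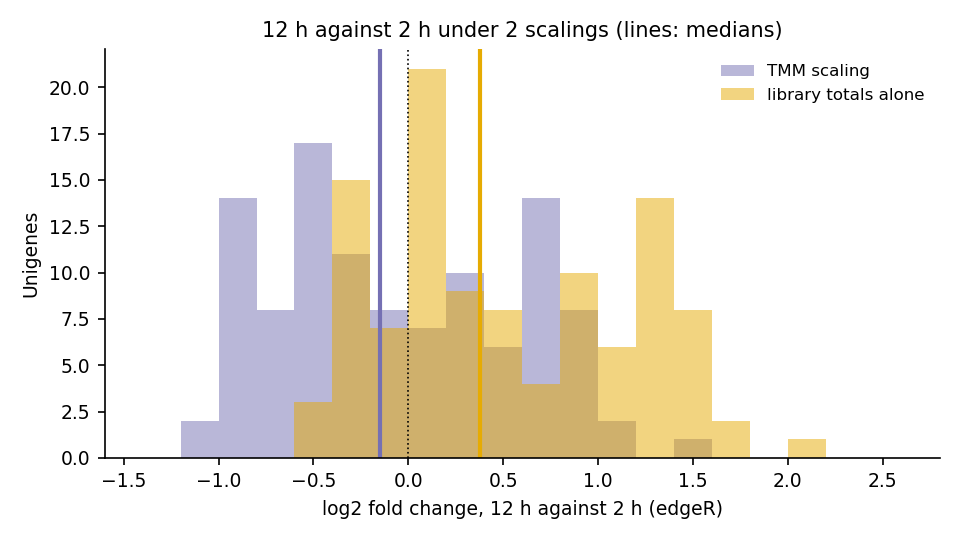
Number of members by log2 fold change of 12 h against 2 h from edgeR, for the 108 tested members, with TMM scaling and with library totals alone. The vertical lines mark the medians of -0.15 and 0.38, on either side of 0.

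The most abundant member, c83014_g1, continued down. Its normalized read counts were 8125 and 7725 in the controls, 2930.3 and 2335 after 2 h, and 1342 and 1440.4 after 12 h. The groups did not overlap, and each time point lay below the one before. Its log2 fold change was -1.59 ± 0.12 (SE) at 2 h and -2.54 ± 0.13 at 12 h. At 3.01-fold lower after 2 h it entered the list near its limit.

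The second by abundance, c88520_g1, changed little more after the first fall. It had 6899.9 and 6277 normalized reads in the controls, 1959 and 1779.9 after 2 h, and 1380.3 and 1475 after 12 h. Both heated groups were well below the controls, and the 12 h libraries lay somewhat below those of 2 h. The log2 fold changes were -1.82 ± 0.11 (SE) at 2 h and -2.24 ± 0.11 at 12 h. Its FPKM went the other way between the heated groups, from 43.0 ± 0.778 after 2 h to 48.5 ± 3.30 after 12 h (SD, n = 2), with 149 ± 10.6 in the controls.

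The next 3 by control level differed among themselves. The third had 6563 and 6434 normalized reads in the controls, 1209 and 1042 after 2 h, and 1465 and 1609.7 after 12 h. It had dropped further than the first and second, to 17.3% of control, and its 12 h libraries stood above both of 2 h. It had the highest control level per length of all members, at 887 FPKM. The fifth had 5536 and 5300.2 in the controls, 1717 and 1812 after 2 h, and 1726 and 1857 after 12 h, so that its heated libraries overlapped between the times at 32.6% and 33.1% of control. This held by normalized read count only. With library totals alone the fifth had a log2 fold change of 12 h against 2 h of 0.58. The fourth, at 6438 and 6057 in the controls, had 1838 and 1689 after 2 h and 1464 and 1444 after 12 h. Its 12 h libraries were the lower by normalized read count, while with library totals alone its log2 fold change of 12 h against 2 h was 0.29.

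The largest return among members called higher was that of c80773_g1. Its normalized read counts were 1230.0 and 1080.2 in the controls, 216 and 295 after 2 h, and 745 and 792 after 12 h. The 3 groups did not overlap: the 12 h libraries lay between those of 2 h and the controls. Its log2 fold changes were -2.17 ± 0.15 (SE) at 2 h, -0.62 ± 0.14 at 12 h and 1.56 ± 0.15 for 12 h against 2 h. At 12 h it was 1.5016-fold below control, the member nearest to the upper limit; the unigene just beyond that limit was 1.46-fold lower. With library totals alone its log2 fold change at 12 h was 0.005, and its FPKM of 129.7 ± 12.3 in the controls and 129.9 ± 8.80 after 12 h (SD, n = 2) overlapped, so that by these measures it did not stand below control.

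The next largest return, of c70931_g1, rested on less abundant transcripts. It had 199 and 124 normalized reads in the controls, 48.4 and 39.5 after 2 h, and 107 and 89.1 after 12 h. The groups did not overlap, but the controls differed more from each other than the 12 h libraries did. The log2 fold changes were -1.89 ± 0.26 (SE) at 2 h, -0.77 ± 0.22 at 12 h and 1.13 ± 0.26 for 12 h against 2 h. The change at 12 h was no longer called with control replicate 1 left out (-0.39), with heat 12 h replicate 2 left out (-0.64), with DESeq2 (-0.80), with library totals alone (-0.15) or with limma on FPKM values. Its FPKM stood at 10.7 ± 3.37 in the controls, 3.09 ± 0.354 at 2 h and 10.5 ± 1.16 at 12 h (SD, n = 2).

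**Figure D4:**
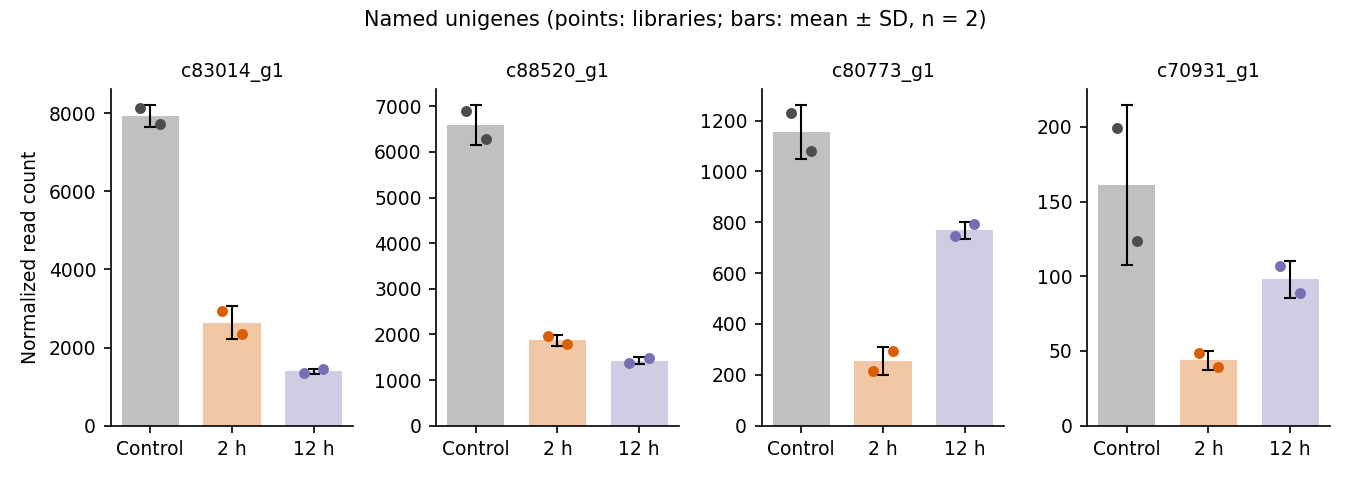
Normalized read counts of c83014_g1, c88520_g1, c80773_g1 and c70931_g1 by group, with a linear axis from 0, points for the libraries and bars for the mean ± SD (n = 2). The first and second stay far below control at both times, while c80773_g1 is at 66.6% and c70931_g1 at 60.9% of control after 12 h.

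Replicates agreed closely for most members. In 99 members the replicates were within 2-fold of each other in every group. The median absolute log2 difference between replicates was 0.13 in the controls, 0.20 at 2 h and 0.14 at 12 h, against 0.12, 0.15 and 0.14 for all unigenes with a control level of 100 or more. Control replicate 1 was the higher in 80 of the 110 members, and the part of this in the result was not tested. The share over all unigenes was not taken, so this count cannot be called particular to the members.

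**Figure D5:**
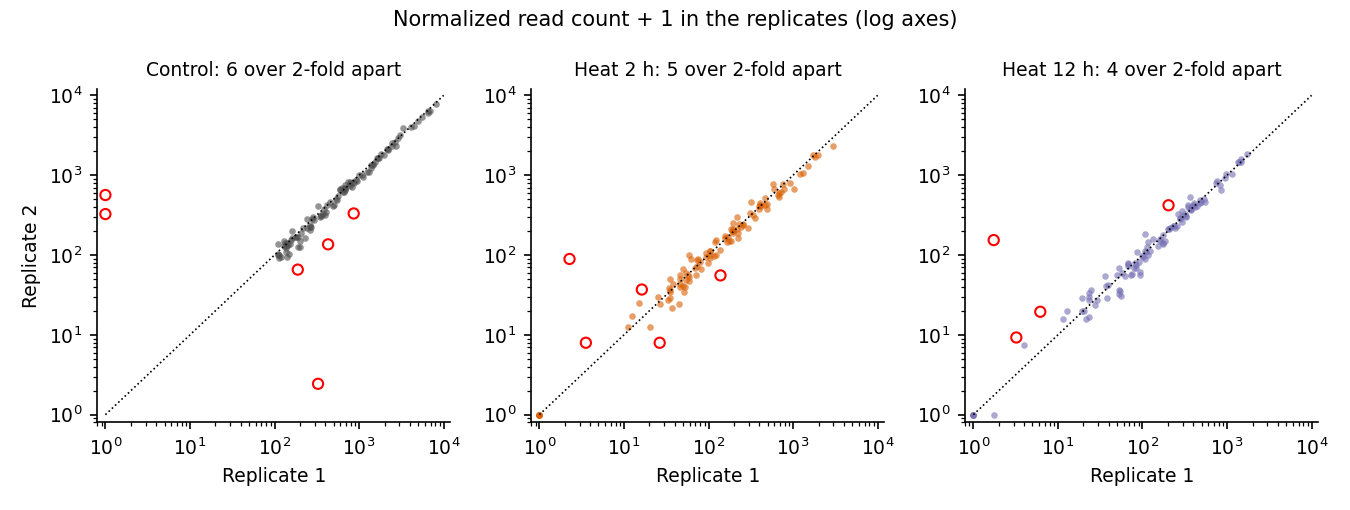
Normalized read count plus 1 in replicate 1 (x) and replicate 2 (y) of each group, on log axes, with members over 2-fold apart circled in red. There are 6 such members in the controls, 5 at 2 h and 4 at 12 h, and the circled controls include 3 with a count near 0 in 1 library.

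The 6 members outside the 104 calls all had controls more than 2-fold apart, which held for none of the 104. They include 3 whose control level came almost wholly from 1 library. The reads of the first were 0 and 392 in control replicates 1 and 2, and it had no read in any heated library. The second had 0 and 226 control reads, none after 2 h and 1 after 12 h. These were the 2 members left out by the filter on low counts.

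The third of them did not follow the groups at all. Its normalized read counts were 326 and 1.44 in the controls, 1.27 and 88.2 after 2 h, and 0.741 and 153 after 12 h. In each group 1 library was high and the other near 0, so its place in the list came from control replicate 1 alone. The fit gave it standard errors of 2.67 at 2 h and 2.35 at 12 h on the log2 scale.

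Of the other 3 uncalled members, 2 had reads in both controls and in no heated library. Their control reads were 870 and 230 for one and 433 and 94 for the other, ratios of 3.78 and 4.61 where the library totals stood at 1.44. Taken against a floor of 3 reads over a group, the 2 h level was at least 327-fold lower for one and 155-fold lower for the other. The last had 187 and 64.6 normalized reads in the controls, 15.3 and 36.0 after 2 h, and 51.1 and 31.8 after 12 h. Every heated library of this member was below both controls. Without these 6 the median folds were 3.48 at 2 h and 4.28 at 12 h, and 8 members in place of 12 reached 8-fold at 2 h.

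Among the called members the deepest loss belonged to 1 with 141 and 65 reads in the controls and none after heat, at least 64.0-fold lower after 2 h and 113-fold after 12 h. A member of higher abundance went from 585 and 645 normalized reads in the controls to 25.5 and 6.96 after 2 h and 5.19 and 18.5 after 12 h. The heated libraries of this member scattered more than 2-fold, yet all stayed far below the controls. Another went from 273 and 280.1 to 19.1 and 11.6 after 2 h and to 19.3 and 19.1 after 12 h, or 5.89% and 7.27% of control by normalized read count. Its FPKM was higher at 12 h, at 13.56 ± 0.382, than at 2 h, at 6.705 ± 2.13 (SD, n = 2).

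The 110 members came from 108 assembly components, the units from which unigenes are drawn, and 2 components held 2 members each. In the first pair the longer unigene had 3019 and 3164 normalized reads in the controls, 308 and 336 after 2 h, and 262 and 321 after 12 h. Its shorter partner had 789 and 819, then 91.7 and 92.8, then 80.8 and 79.6. They were 9.57-fold and 8.63-fold lower after 2 h and 10.6-fold and 9.92-fold lower after 12 h. The second pair was 3.10-fold and 3.15-fold lower after 2 h and 5.48-fold and 6.07-fold lower after 12 h. Unigenes of a component may share reads, so the members of a pair are not independent. The rule also bounded the folds of both, so the closeness within these pairs is no result about components.

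The rule had been applied to the other unigenes of the members' components as well, and these are the ones that did not meet it. There were 53, of which 26 in 21 components were abundant enough to be tested. At 2 h 11 of the 26 were called lower and 1 higher (edgeR quasi-likelihood test), which is 42.3% lower and 3.85% higher against 14.4% and 14.3% of all unigenes tested. At 12 h 13 were called lower and 3 higher, which is 50% lower and 11.5% higher against 24.4% and 27.6%, and 10 were lower at both times. The 12 h balance depended on scaling. With library totals alone 9 were called lower and 8 higher at 12 h, and with limma on log2(FPKM + 1) 8 and 7. Over all unigenes tested, library totals gave 3252 lower and 13555 higher. In the main fit the partners' median log2 fold changes were -0.60 at 2 h and -0.52 at 12 h, against 0.00 and 0.12 over all unigenes tested and -1.82 and -2.13 for the members. The 11 lower calls came from 9 components, 3 of them from 1; without that component 8 of 23 were called lower.

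Component partners did not always go together. The partner of the member ranked 7th by control level had 441 and 439.5 normalized reads in the controls and 466 and 483 after 2 h. The difference, 0.11 ± 0.11 on the log2 scale (SE), was not called (edgeR adjusted p = 0.498). The member itself went from 4489 and 4147 to 775 and 666 over the same time. After 12 h the partner had 367 and 358 (a change of -0.31 ± 0.11 on the log2 scale, edgeR adjusted p = 0.0290) and the member 347 and 397. For 12 h against control, library totals alone moved the median of all unigenes tested from 0.12 to 0.74. The partner's change was not read under that scaling. One rare partner of another member rose, from 4.95 and 1.44 normalized reads in the controls to 98.0 and 51.1 after 2 h, by 4.36 ± 0.66 on the log2 scale (SE), with edgeR adjusted p = 0.00111. Its 12 h libraries had 57.1 and 28.0.

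Length and component size were not used by the rule. The length implied by count, FPKM and library total had a median of 1344 bases over all 110 members, with quartiles of 916 and 1846. For the 10068 unigenes at the same control level the median was 1532 and the quartiles 1019 and 2227. Of the members 39 came from components with more than 1 unigene, 35.5% against 36.8% of those 10068. The 4 members without a read in any heated library had implied lengths of 58.4, 125, 143 and 1346 bases.

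The members are 56.1% of the 196 unigenes that were at least 3-fold lower at 2 h from a control level of 100 or more. Of these 65 were at 50% of their 2 h level or less by 12 h and 21 came back to within 1.5-fold of control. At 2 h, where the same 3-fold limit chose all of them, the median folds were 3.51 for the members, 3.48 for those that went lower and 3.53 for those that came back. At 12 h, which defines the courses, the median folds were 4.32, 12.4 and 1.10. Median control levels were 488 normalized reads for the members, 1545 for those that went lower and 290.0 for those that came back. Implied median lengths were 1344, 1185 and 2056 bases, and 35.5%, 52.3% and 47.6% came from components with more than 1 unigene. Falls of 8-fold or more at 2 h numbered 12 of 110, 1 of 65 and 3 of 21. No test was made of these differences, since the courses were cut from the same values.

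Most unigenes that were 3-fold lower at 12 h had not been so at 2 h. At a control level of 100 or more, 1235 unigenes were at least 3-fold lower at 12 h, 12.3% of those measured, and the members supplied 76 of them. At 2 h the corresponding number was 196, or 1.95%. These counts depend on the median-of-ratios scaling and were not repeated with library totals. The edgeR calls show how far scaling matters. Over all unigenes tested 6291 were called lower at 12 h with TMM and 3252 with library totals alone. At 2 h these were 3719 and 3410.

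The rule was also applied to 1 library per group, and the chosen unigenes were read in the libraries that had not been used. The 3 libraries of replicate 1 chose 126 unigenes. In those of replicate 2, 125 of the 126 were lower at 2 h than in the control, 118 by at least 2-fold and 77 by at least 3-fold. Their median fold at 2 h was 3.61 where chosen and 3.25 where read. The libraries of replicate 2 chose 125, of which 121 were lower in replicate 1, 114 by at least 2-fold and 72 by at least 3-fold, with medians of 3.68 and 3.18. At 12 h the medians in the unused libraries were 3.66 and 4.19, against 4.37 and 4.18 where chosen. In both directions 64 met the whole rule in the unused libraries. With 1 library per group these values have no replicate check. Shares over all unigenes were not taken in the same single libraries, so part of the counts of lower unigenes may be background. Over all 6 libraries, the unigenes with a control level of 100 or more had a median log2 fold change of -0.09 at 2 h. By mean level 1.95% of them were at least 3-fold lower.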

How the data were processed

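RNA sequencing of leaves gave 6 libraries in 3 groups of 2, with totals of 6313500 to 9326725 reads. The authors deposited estimated counts per unigene, of which 99.3% of those above 0 are whole, and FPKM values scaled for length and library total. Tools listed per the submitters' processing notes, without their roles, are HTSeq 0.6.1, DESeq 1.18.0, Bowtie2 2.2.3 and TopHat2 2.0.12. Assembler, build and strandedness were not given in the sources used here.

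Size factors came from the 18038 unigenes with at least 10 reads in every library. For tests, the estimated counts were rounded (the design had assumed counts), filtered by filterByExpr (minimum count 10, minimum total 15), scaled by TMM and fitted over all 6 libraries with edgeR 4.0.16 (R 4.3.3, robust glmQLFit), with Benjamini-Hochberg adjustment over 25828 unigenes and a threshold of 0.05. SE is the fold change over the square root of F. The p-values measure only the spread between these libraries, which may be technical. The procedure was tested on simulated data. Lengths used cells of at least 50 reads, and folds are ratios of group means plus 1.

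The members, lists and tests were chosen with earlier results of these data known. Named were the 2 members of highest control level called lower at both times, and the 2 with the largest rise from 2 h to 12 h among those called higher, all without overlap between libraries; other members, singled out after their values were seen, are given by rank or trait. Planned gene lists match on names and could not be used. Alternatives were DESeq2 1.42.0, limma 3.58.1 on log2(FPKM + 1) and log2(FPKM + 0.1) with at least 2 libraries above 0.1 FPKM, other scalings, no filter, a replicate block, other settings of the rule and leaving out each library.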

Additional observations from a re-analysis of the deposited data

Results flagged for a closer look

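For 63 members the effect of heat differed between 2 h and 12 h by the test of 12 h against 2 h, which the rule for the list also used. This is 58.3% of the 108 tested, against 59.0% of all unigenes with a control level of 100 or more, so it is no result about the members. Of these, 28 were closer to control at 12 h and 35 further from it. Among the named members the log2 fold change of 12 h against 2 h was -0.95 for c83014_g1 and -0.42 for c88520_g1, both lower at 12 h. It was 1.56 for c80773_g1 and 1.13 for c70931_g1, which were picked for a large rise in this comparison. With groups of 2 libraries, no sample could be tested for standing apart from its group.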

How the results depend on the processing

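The calls of members as lower at 2 h and at 12 h stayed within 1.5 times under every alternative run (98 to 107 at 2 h, 82 to 105 at 12 h). Both contrasts with control were used by the rule that chose the members, so these counts only describe the list. Between 12 h and 2 h, 28 members were called higher and 35 lower. With library totals alone these were 47 and 5. DESeq2 called 16 higher, and limma on log2(FPKM + 1) and on log2(FPKM + 0.1) called 0 lower. Leaving out 1 library gave 16 (without heat 2 h replicate 2) to 27 higher and 27 to 32 lower. The lower calls at 2 h then ranged from 103 to 106, those at 12 h from 101 to 105, and those of component partners from 9 to 11, against 7 with limma on log2(FPKM + 0.1) and 11 in the main fit. The list itself held 96 to 137 members with 1 library left out, and 49 where every library had to meet the conditions. Scaled to totals it held 102, of which 79 were among the 110; of the others of the 110, 17 were within 1.5-fold of control at 12 h and 14 not 3-fold lower at 2 h. Minimum control levels of 50 and 200 gave 160 and 79. The log2 fold change of c80773_g1 at 12 h turned to 0.00496 with totals, 0.0039 with limma on log2(FPKM + 1) and 0.0040 on log2(FPKM + 0.1), and that of c70931_g1 to 0.0018 on log2(FPKM + 0.1). The latter was no longer called with DESeq2 (-0.80, adjusted p = 0.0790) or without heat 12 h replicate 2 (-0.64, adjusted p = 0.0635); the cause beyond scaling was not tested.

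Over all unigenes 7425 were called at 2 h, 13423 at 12 h and 11810 between the times. DESeq2 called 4254, 8801 and 7331. Limma called 3735 on log2(FPKM + 1) and 4849 on log2(FPKM + 0.1) at 2 h. Leaving out 1 library gave 4228 (without control replicate 1) to 7878 at 2 h, 10015 to 13815 at 12 h and 9198 to 11393 between the times. With totals 80.7% of the calls at 12 h were higher in place of 53.1%, and 80.5% in place of 50.1% between the times. The labels do not say that a replicate number marks a shared batch, so the main fit had no replicate block. With a block 106 members were called lower at 2 h and 105 at 12 h, and between the times 28 higher and 36 lower. Across unigenes, the deviations of same-numbered libraries correlated with r of 0.0078 for control and 2 h and 0.035 for control and 12 h. Between 2 h and 12 h r was 0.285, and a shared source of those libraries was not tested.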
